A study of Mus musculus with 4 samples.

Results

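The immunity-related GTPases (IRGs) described here are encoded by 7 mouse genes, Irgm1, Irgm2, Igtp, Iigp1, Ifi47, Tgtp1 and Tgtp2, named by symbol as the IRG genes of the 21728 protein-coding genes on the chromosomes that hold peaks. Their chromatin accessibility was followed in every ATAC-seq peak that overlapped a gene body or the 10 kb on either side of it. In ATAC-seq, a transposase (Tn5) cuts open DNA and leaves adapters behind, and sites with many cuts appear as peaks of reads. The series compared bone marrow-derived macrophages (BMDMs), grown from mouse bone marrow to day 7 (the labels give 6 to 8 days) in medium with 20% L929-conditioned supernatant, from wild-type (WT) mice and from mice lacking histone H3.3 in myeloid cells (H3.3cKO), with 2 biological replicates of each.

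Both groups carried floxed alleles of the 2 H3.3 genes on a C57BL/6 background, H3f3a fl/fl and H3f3b fl/fl, to which the cKO mice added LysM cre/cre and the WT mice no Cre. The mice were 8 to 10 weeks old and of both sexes. LysM-Cre acts in macrophages and granulocytes, and the study describes the deletion of H3f3b as variable. The labels name no stimulus. Which mice or cultures gave which replicate was not stated, so the spread between replicates may be partly technical.

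IRG proteins are GTPases that interferons, above all interferon-γ, induce in mouse cells, where they act against intracellular pathogens such as Toxoplasma. The effector IRGs (Iigp1, Ifi47, Tgtp1 and Tgtp2) gather on the membrane of the vacuole that shelters the parasite and disrupt it, while the regulatory IRGs (Irgm1, Irgm2 and Igtp) sit on host membranes and keep the effectors inactive there. Their promoters are known for gamma-activated sequences (GAS), through which interferon-γ acts, and for elements built from GAAA repeats, which interferon regulatory factors (IRFs) bind.

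The promoters are shown first, because several of them share a short stretch in which a GAS is followed by an IRF element. RefSeq promoters of build GRCm38.p6, each 250 bases before and 50 after a gene's start, were found for 6 of the 7 genes, all but Iigp1. The motifs searched on both strands were GAS, spelled TTCNNNGAA, and the IRF element, spelled GAAANNGAA. In the lines that follow, each written 5′ to 3′ on the strand of its gene, capitals mark the matches. They lie at chr11:48871426-48871460 (minus strand), chr11:58214892-58214931 (plus), chr11:58199501-58199540 (plus), chr11:48992305-48992344 (minus) and chr11:49064264-49064303 (minus), in this order.
Irgm1: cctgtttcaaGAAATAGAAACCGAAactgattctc
Irgm2: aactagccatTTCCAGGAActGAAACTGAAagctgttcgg
Igtp: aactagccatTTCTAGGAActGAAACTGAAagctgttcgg
Tgtp1: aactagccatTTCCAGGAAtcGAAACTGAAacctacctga
Tgtp2: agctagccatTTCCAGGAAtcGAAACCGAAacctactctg

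The stretches of Irgm2, Igtp, Tgtp1 and Tgtp2 each held a GAS and, 2 bases further on, an IRF element. Those of Irgm2 and Igtp were identical at 39 of 40 bases and those of Tgtp1 and Tgtp2 at 34 of 40. Irgm1 had 2 IRF matches that overlap each other and no GAS. The Ifi47 promoter, that of its upstream start Ifi47-202, held neither motif. Promoters of the other, downstream Ifi47 starts were not searched. The IRF element was present in 5 of the 6 promoters against 8.56% of all 32851 RefSeq promoters, and GAS in 4 of 6 against 8.30%. A GAS followed within 10 bases by an IRF element on the same strand occurred in 23 of the 32851 promoters, among them these 4 and that of Gm12185, a further IRG family gene. The arrangement was taken from these promoters, so its presence in the 4 is no separate result. The whole promoters of Igtp and Irgm2 were identical at 72.8% of aligned positions, and those of Tgtp1 and Tgtp2 at 66.8%. The counts of IRG promoters with a motif are therefore not independent of each other. Such letter matches describe the sequence and do not show that a factor is bound.

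The same arrangement lay under 3 of the peaks described below. The peak regions at the starts of Igtp and Irgm2, called in all 4 libraries, contained the stretches printed above, with the centre of the IRF element 46 and 59 bp from the summit. The third was a peak found only in cKO cells at a distal start of Tgtp1, shown here because it is the only peak region in the window of that gene. The stretch is at chr11:48994237-48994276, on the minus strand.
Tgtp1 distal start: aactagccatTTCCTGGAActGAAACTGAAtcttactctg

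This distal stretch was identical to that of the annotated Tgtp1 promoter at 31 of 40 bases, to Tgtp2 at 33 and to Irgm2 at 33. Among all 71243 peak regions of the series, 49 had this arrangement within 100 bp of the summit. Of those 49, 33 were called in all 4 libraries, 2 in both cKO libraries alone, and 4 in both WT libraries alone, where 3.72% and 7.25% of all regions were gained and lost in this way.

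Peaks had been called separately in each library, and the lists held 55742 and 64939 peaks in WT and 51955 and 60884 in cKO. Peaks of the 4 lists that overlapped were merged into regions. A region is named gained if each cKO library but no WT library had a peak in it, lost in the reverse case, shared if it was called in all 4, and mixed otherwise. The size of a peak is given as the percentile of its area within its own list (100 is the largest peak), since areas depend on sequencing depth, which is unknown here. Where a region holds several peaks of a library, the largest is given, and for other measures the highest value among them.

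Macrophage identity was visible in the lists, with a peak over the start of 7 of 8 macrophage markers in every library (Spi1 had none), and of 0 of 4 T cell and 0 of 4 fibroblast markers. Of the B cell and neutrophil lists, 1 of 4 markers each was open in all libraries (Ms4a1 and Cebpe), and the start of the neutrophil gene Ly6g was open in each cKO library and in no WT library. Its part in the results was not tested. The floxed part of H3f3a, exon 2, had a peak at percentiles 5.02 and 19.1 in WT and none in cKO. A larger H3f3a region, over exon 2 of H3f3a-207, was shared, at 95.95 and 97.2 in WT and at 93.4 and 94.1 in cKO. The largest peak over exons of H3f3b stood at 94.2 and 95.5 in WT and at 87.0 and 81.4 in cKO. A smaller one, over exon 1 of H3f3b-202, stood at 23.7 and 34.3 in WT and at 28.7 and 42.5 in cKO, so H3f3b kept peaks in both cKO libraries and these lists do not show its loss.

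The IRG genes had more peaks, and more DNA covered by peaks, in either H3.3cKO library than in either WT library, although the exact permutation test used here cannot reach significance with 2 libraries per genotype. Their windows, 198.2 kb in all after merging, held 13 and 18 peaks in WT replicates 1 and 2, and 23 and 24 in cKO. Both cKO libraries thus lay above both WT libraries, with 15.5 ± 3.54 peaks in WT and 23.5 ± 0.71 in cKO (mean ± SD, n = 2 each, two-sided exact permutation p = 0.33, the smallest that 2 against 2 libraries allow). Relative to the length of each list, that was 0.233 and 0.277 per 1000 peaks in WT and 0.443 and 0.394 in cKO. The longer list of each genotype was that of replicate 2, and the cKO lists were shorter than the WT list of the same number.

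The length covered by these peaks was 7261 and 8249 bp in WT and 12241 and 13781 bp in cKO. The groups did not overlap, and the difference between their means was 5256 bp (exact permutation p = 0.33). With only the peaks above the median area of their list, it was 2329 bp (exact permutation p = 0.33), and the difference in peak number fell from 8 to 1.5 (p = 0.667, exact permutation), so that the genotypes no longer separated by number. Gene by gene, the covered length was above both WT libraries in both cKO libraries at 6 of the 7 genes, and the exception, Tgtp2, had no peak in any library. Over all 16344 protein-coding genes with a peak in the same kind of window, that share was 14.3%, and 38.4% had a covered length that was lower in both cKO libraries. Neighbouring IRG genes share peaks, so the 6 genes are not independent of each other.

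**Figure D1:**
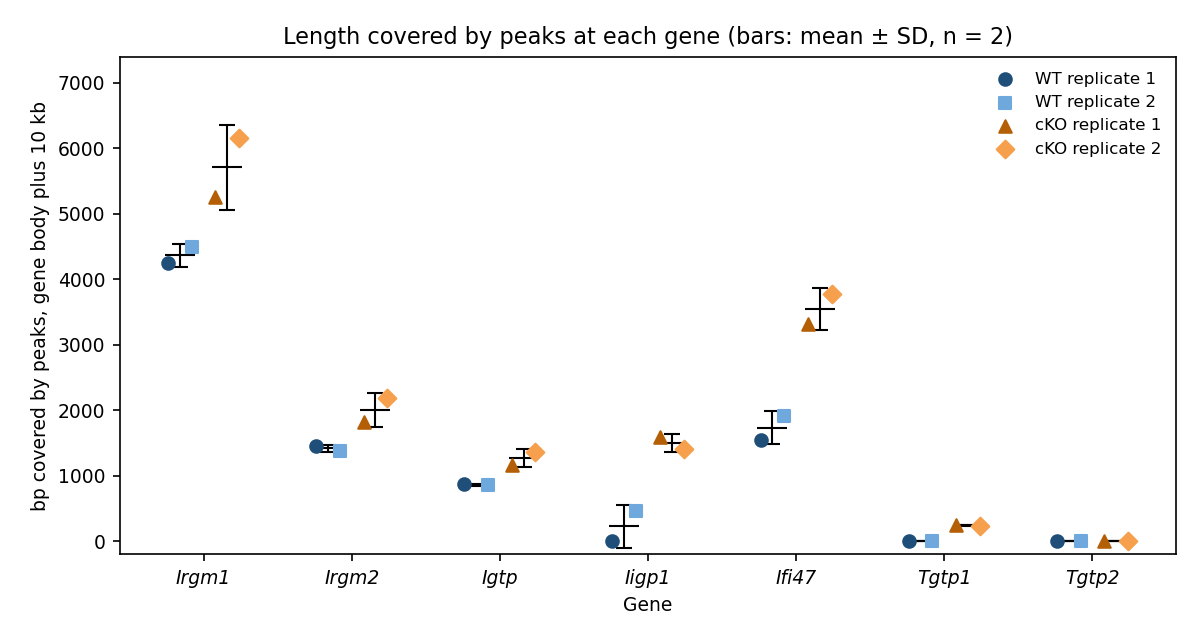
Length in bp covered by peaks in the gene body plus 10 kb (y axis) for each of the 7 genes (x axis), with 1 point per library and bars for the mean ± SD of the 2 libraries of a genotype. The cKO points stand above the WT points at every gene but Tgtp2, which is at 0 in all 4 libraries, and the widest gap is at Ifi47, with 1736 bp on average in WT and 3546 bp in cKO.

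In all, 23 regions were found at the 7 genes, here numbered R1 to R23 in genome order. Of these, 6 were gained (26.1%), none was lost, 12 were shared and 5 were mixed. Over all 71243 regions of the series, 3.72% were gained and 7.25% lost. A gained region was present at 5 of the 7 genes, Irgm1, Irgm2, Igtp, Ifi47 and Tgtp1, of which Irgm2 and Igtp share theirs, against 11.1% of all protein-coding genes with a region. None of the 7 had a lost region, against 21.8% of all such genes. Those genes had a median of 3 regions, and these shares were not adjusted for the number of regions. Irgm1 had 6 regions, Irgm2 5, Igtp 3, Ifi47 10, and Iigp1 and Tgtp1 had 1 each. Tgtp2 had no region and so falls outside the genes with a region. The 5 mixed regions had in common that none of them was called in WT replicate 1.

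The gained peaks were small. Their percentiles ran from 0.90 to 53.9, with areas of 204 to 703. Every list ends at an area of 200, the peak caller's lower limit, and a site slightly below it in WT is missing from the WT lists, so a gained call does not mean that the site is closed in WT cells. None of the 6 was still gained when only the peaks above the median area of their list were taken. Of the gained regions, only R7, at Tgtp1, had a GAS or an IRF element within 100 bp of its summit. R3, R10, R12, R15 and R19 had neither, nor did the mixed region R23 at Iigp1. Over all gained regions of the series, 8.1% had an IRF element there and 5.65% a GAS. Among the 23 IRG regions, 6 had an IRF element (R1, R5, R6, R7, R18 and R20), against 8.97% of all regions. A GAS was found in 3 (R7, R18 and R20), against 6.1% of all regions. R7, R18 and R20 hold the related stretches printed above, so these counts are not independent, and the difference was not tested.

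**Figure D2:**
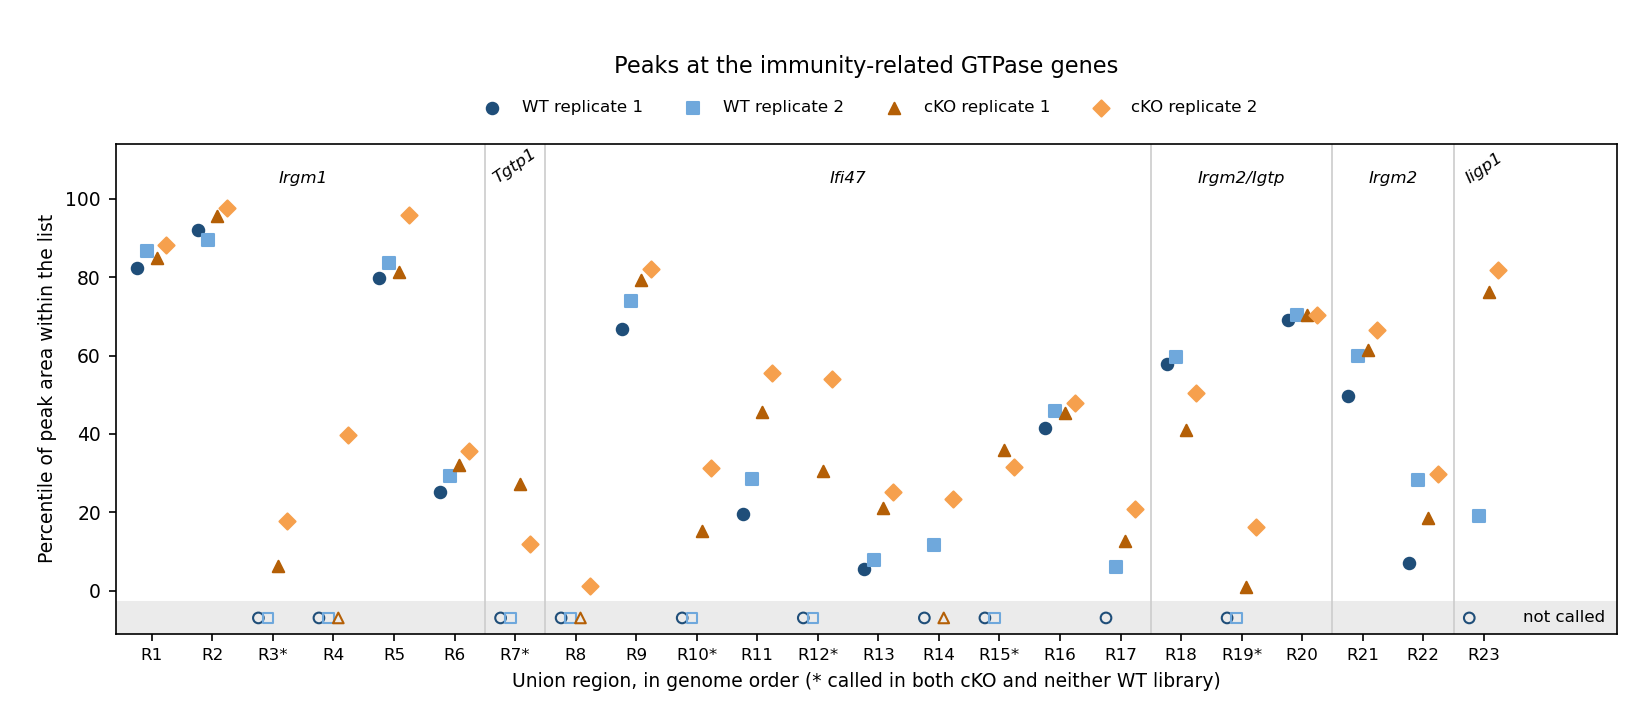
Percentile of peak area within its list (y axis) for the 23 regions in genome order (x axis), with 1 symbol per library; open symbols in the grey strip stand for libraries in which the region was not called, and asterisks mark the 6 gained regions. Filled WT symbols are missing at all gained regions, and R18, at the start of Igtp, is the only shared region at which both WT symbols lie above both cKO symbols.

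Among the regulatory IRGs, Irgm1, whose product protects host membranes and is needed for macrophages to control mycobacteria, had the greatest covered length of the members (gene chr11:48861968-48871683, minus strand). Its start region R5 (chr11:48870788-48872942), which covers exon 1 of Irgm1-201 and Irgm1-202, was shared, with percentiles of 79.9 and 83.6 in WT against 81.4 and 95.9 in the cKO libraries. The groups overlapped, and only cKO replicate 2 stood apart. In that library the whole stretch was 1 peak of 1958 bp, while each of the other libraries had 2 peaks there. The peak nearest the start alone measured 597 and 602 bp in WT, at percentiles 59.0 and 60.6, and 1193 bp in cKO replicate 1, at 78.1.

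About 14.5 kb downstream of the Irgm1 start, beyond the 3′ end of the gene, lay the largest IRG peak, R2 (chr11:48855312-48857203). It had percentiles of 92.0 and 89.4 in WT against 95.7 and 97.7 in cKO, with areas of 2350 and 2248 against 3108 and 4204. Both cKO libraries lay above both WT libraries, by 6.02 percentile points on average (exact permutation p = 0.33). A smaller region upstream of the gene, R6 (chr11:48874516-48874939), was at 25.1 and 29.2 in WT and reached 32.1 and 35.5 in cKO, again without overlap. R1, at the start of the non-coding gene Gm16170, overlapped between the genotypes, at 82.4 and 86.8 in WT, and 84.9 and 88.3 in the cKO libraries.

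Only small sites separated the genotypes by presence at Irgm1. R3 (chr11:48859108-48859355), intergenic and 12.1 kb downstream of the start, was gained, at percentiles 6.3 and 17.8 in cKO. R4, in an intron, was called in cKO replicate 2 alone, at 39.8.

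Irgm2 (chr11:58199618-58222782) and Igtp (chr11:58199556-58207591), the other regulatory members, both lie on the plus strand and share an upstream start region. R18 (chr11:58199168-58199652) covers exon 1 of all Igtp transcripts and of Irgm2-201. It was the one shared IRG region that ranked lower in both cKO libraries, with percentiles of 57.8 and 59.6 in WT against 40.9 and 50.4 in cKO. The groups did not overlap, and the mean difference was -13.1 percentile points (exact permutation p = 0.33). Of all shared regions of the series, 35.1% were lower in both cKO libraries and 15.6% had a more negative difference. R18 was lower in both cKO libraries also when ranked by area per bp and by the −log10 p-value at the summit.

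The main Irgm2 start, 15.5 kb further on, did not share this pattern. R20 (chr11:58214652-58215060), over exon 1 of Irgm2-202 and Irgm2-203, had percentiles of 69.1 and 70.4 in WT against 70.2 and 70.4 in cKO. All 4 values lay within 1.34 points of each other, and the 2 genotypes overlapped. The start regions of Igtp and Irgm2 thus hold almost the same GAS and IRF stretch and differed in order between the genotypes, but that difference was not tested.

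Between these starts, R19 (chr11:58210897-58211488), in an intron of Irgm2, was gained at the low percentiles of 0.90 and 16.3. Downstream of Irgm2, R21 (chr11:58224226-58224675) was higher in cKO, at 61.4 and 66.6 against 49.5 and 59.8 in WT. R22 overlapped, at 6.9 and 28.1 in WT, and 18.6 and 29.8 in the cKO libraries.

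**Figure D3:**
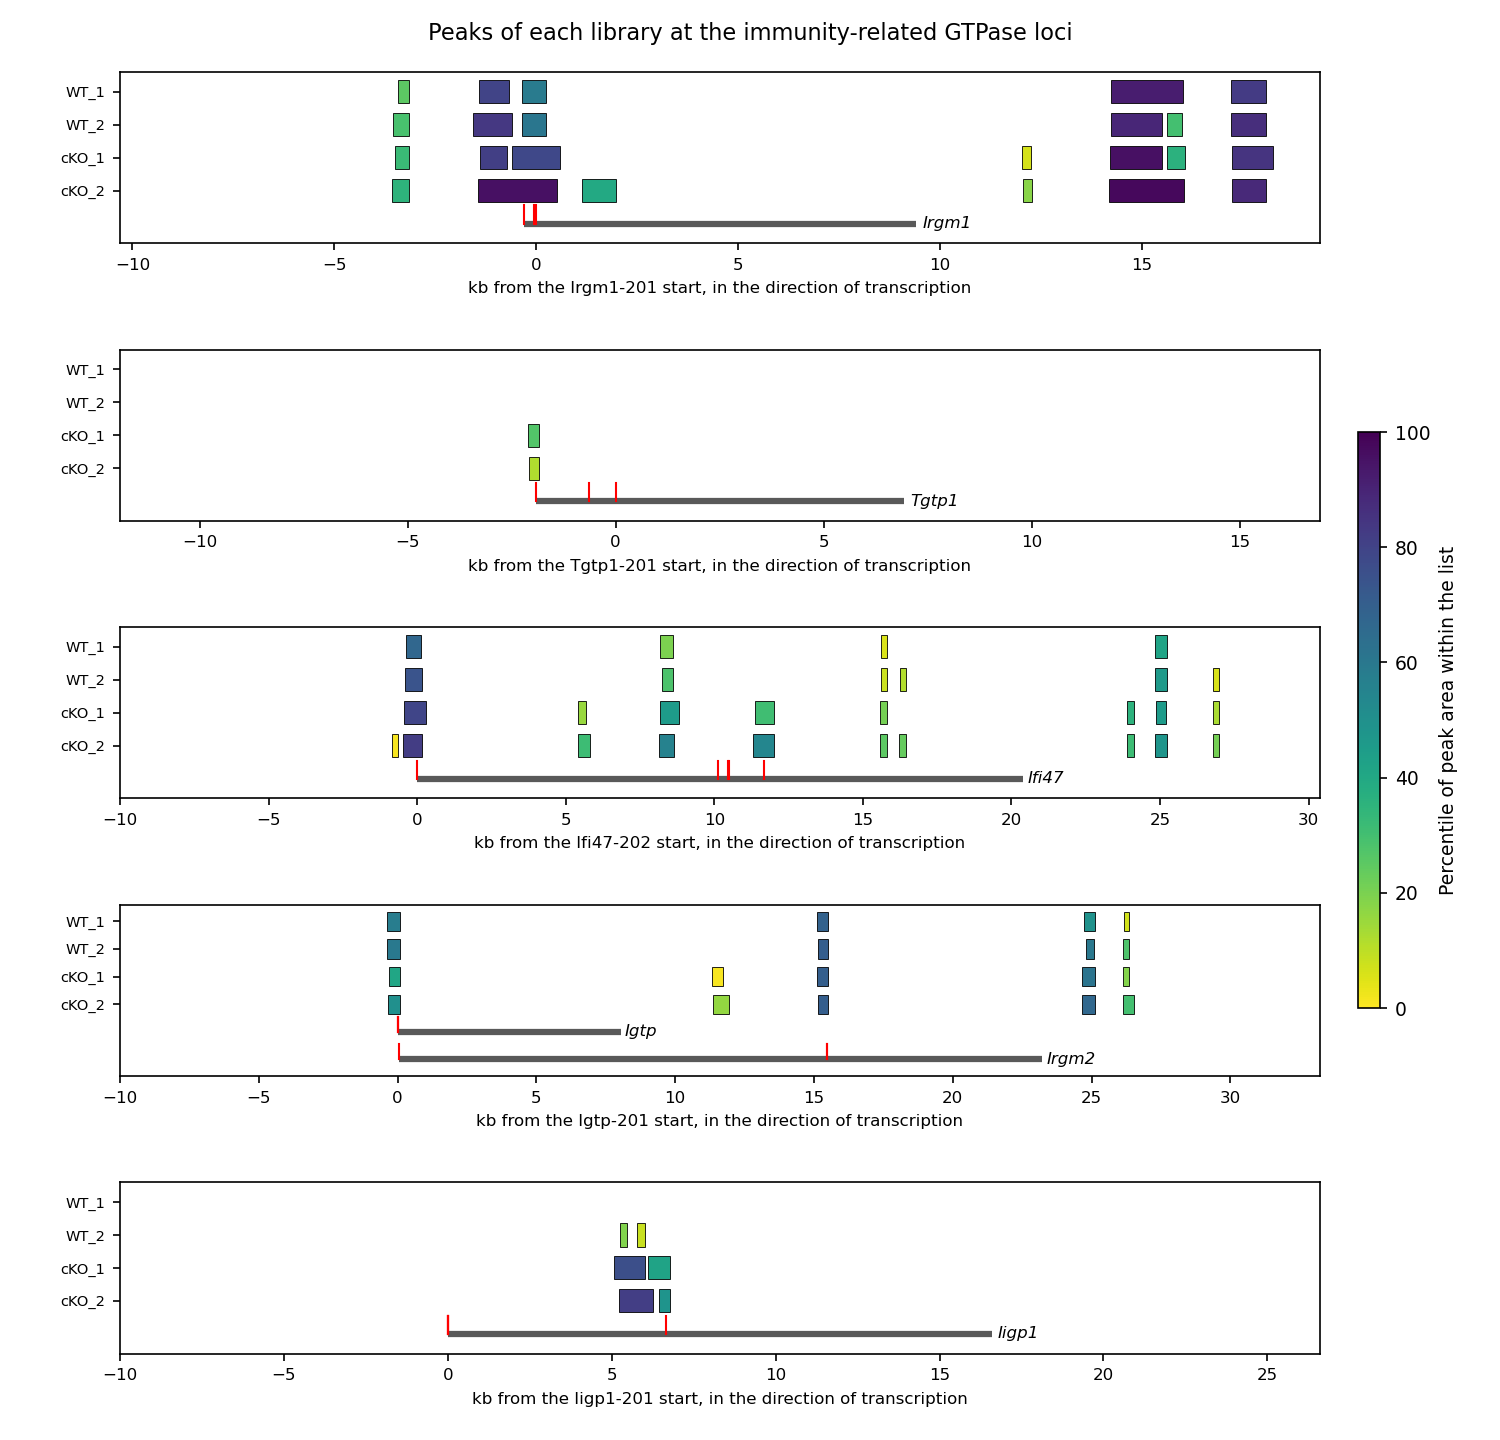
Peaks of the 4 libraries (rows) along 5 loci, drawn to scale in kb from the named transcript start in the direction of transcription (x axes), with colour giving the percentile of peak area, grey lines the gene bodies and red ticks the annotated starts. At Iigp1 the peaks lie around the downstream annotated start and not at the upstream ones, and at Tgtp1 the only peaks, in the 2 cKO libraries, are at the most upstream of 3 starts.

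The effector Iigp1 (chr18:60376027-60392634, plus strand), which acts at the parasite vacuole, had the widest gap in percentile between WT and cKO among the members. Its single region, R23 (chr18:60381106-60382819, 1714 bp), covers exon 1 of Iigp1-204 and exon 2 of Iigp1-201. It was not called in WT replicate 1, stood at percentile 19.01 in WT replicate 2, and reached 76.1 and 81.8 in cKO. Both cKO libraries were far above the WT libraries, but the WT replicates also differed, and as 1 WT library had a peak the region counts as mixed and not as gained.

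Each of the 3 libraries with a call had 2 peaks in R23. In WT replicate 2 they measured 214 and 244 bp, with areas of 318.8 and 246.3, close to the limit of 200. In the cKO libraries they were 364 to 1043 bp wide, with areas of 1279 and 511 in replicate 1 and of 1660 and 606 in replicate 2. The 2 peaks were not the same pair of sites in both genotypes, as both WT peaks overlapped the larger cKO peak. The smaller cKO peak, at 60382138-60382806 in replicate 1 and 60382456-60382819 in replicate 2, covered the Iigp1-204 start. No WT peak overlapped it. The larger peak had its summit at nearly the same base in all 3 libraries, at 60381404, 60381412 and 60381411, about 1.3 kb upstream of the Iigp1-204 start at 60382683. The covered length at Iigp1 was 0 and 458 bp in WT and 1598 and 1407 bp in cKO.

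The more upstream Iigp1 starts, at 60376029 and 60376047 for Iigp1-201 and Iigp1-202, had no peak in any library, and R23 began 5077 and 5059 bp from them. Of the promoter windows of those transcripts, 16.1% and 17.2% of the 50-base words also occur elsewhere in the genome, which was also the case for 12.3% of the words of R23.

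Tgtp1 (chr11:48985327-48994172) and Tgtp2 (chr11:49057194-49064206) are near-identical effector genes on the minus strand. In the Tgtp1 window, R7 (chr11:48994107-48994353) was the only region, and it was gained, at percentiles 27.2 and 11.9 in cKO with areas of 364 and 261. It lies in an intron by the basic annotation, 1937 bp upstream of the Tgtp1-201 start at 48992258, but the full GENCODE vM21 annotation has a protein-coding transcript, Tgtp1-203, whose start at 48994172 is inside R7. The Tgtp1-201 start, with its own GAS and IRF stretch, had no peak in any library. R7 was no longer gained when all lists were limited to the length of the shortest.

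No peak of any library fell in the Tgtp2 window (Tgtp2-201 start at 49064204). In the windows of Tgtp1 and Tgtp2, 56.0% and 60.9% of all 50-base words occur elsewhere in the genome. The share was 2.97% at Irgm1, 7.20% at Ifi47, 6.08% at Igtp, 5.56% at Irgm2 and 18.8% at Iigp1. In region R7 itself it was 14.1%. Reads from such repeated words cannot be placed at 1 gene with certainty, and how the authors treated them was not given in the sources used here. The absence of peaks at Tgtp2 therefore says little about its chromatin. Over all protein-coding genes, 24.8% had no region in their window.

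Ifi47 (chr11:49076587-49096974, plus strand), an effector gene that lies inside a long intron of the Olfr56 annotation, had the most regions, 10, and the most gained ones, 3. Its upstream start, Ifi47-202, was covered by R9 (chr11:49076124-49076898), with percentiles of 66.8 and 73.9 in WT against 79.4 and 82.1 in the cKO libraries. Both cKO libraries were higher, by 10.4 points on average (exact permutation p = 0.33). By area per bp the genotypes overlapped at R9, at 70.5 and 77.1 in WT, and 70.1 and 87.4 in the cKO libraries.

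A downstream start, Ifi47-204, had a peak only in the cKO libraries. R12 (chr11:49087901-49088601), over exon 1 of Ifi47-204 and of the non-coding gene Gm12188, was gained, at percentiles 30.6 and 53.9. Its areas were 392 and 703, the latter the largest of any gained IRG peak, while in cKO replicate 1 the gained region R15 was larger, at 440. The starts of Ifi47-201, Ifi47-203 and Ifi47-205 lie 862, 1201 and 833 bp from it, and none of them was inside a peak.

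The other gained sites at Ifi47 were intronic. R10 (chr11:49081985-49082401) had percentiles of 15.3 and 31.4 in cKO, and R15 (chr11:49100462-49100717), downstream of the gene in the Olfr56 intron, had 35.8 and 31.6. R8, a small peak beside the Ifi47-202 start, was called in cKO replicate 2 alone, at 1.2. R14 and R17 were called in WT replicate 2 at 11.5 and 5.9, and in cKO at 23.4 (replicate 2 alone) and at 12.5 and 20.8 (both replicates).

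The widest difference of a shared region was also at Ifi47. R11 (chr11:49084721-49085385), intronic and 1.94 kb upstream of the Ifi47-201 start, had percentiles of 19.6 and 28.4 in WT against 45.7 and 55.5 in cKO. The groups were well apart, with a mean difference of 26.6 points (exact permutation p = 0.33), and 1.90% of all shared regions of the series had a larger one. R13 (chr11:49092168-49092402), the only IRG region with an AP-1 motif at its summit (TGANTCA, in 16.7% of all regions), was at 5.6 and 7.9 in WT and at 21.02 and 25.2 in cKO, without overlap. R16 overlapped, at 41.5 and 46.0 in WT, and 45.4 and 47.8 in the cKO libraries.

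Ranked by area, the 12 shared regions together leaned to cKO. Both cKO percentiles exceeded both WT percentiles in 6 of them (R2, R6, R9, R11, R13 and R21), and the reverse held in 1 (R18), while 5 overlapped. Over all 44820 shared regions of the series, 22.2% were higher by area in this sense and 35.1% lower. Ranked by area per bp, R6, R9, R11 and R21 overlapped as well, and R2, R13 and R18 kept their order. The share of all shared regions that separate by area per bp was not computed. By area, the median difference was 6.68 percentile points at the IRG genes and -1.10 over all shared regions. It was above 0 in 11 of the 12 regions against 41.9% of all. By area per bp, it was above 0 in 6 of the 12 against 46.3% of all, with a mean of 2.69 points (p = 0.667, exact permutation) in place of 6.78. The mean percentile of the 12 was 49.7 and 55.2 in WT, and 56.4 and 62.1 in the cKO libraries, so the groups did not overlap, with 52.5 ± 3.93 against 59.2 ± 4.02 (exact permutation p = 0.33).

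**Figure D4:**
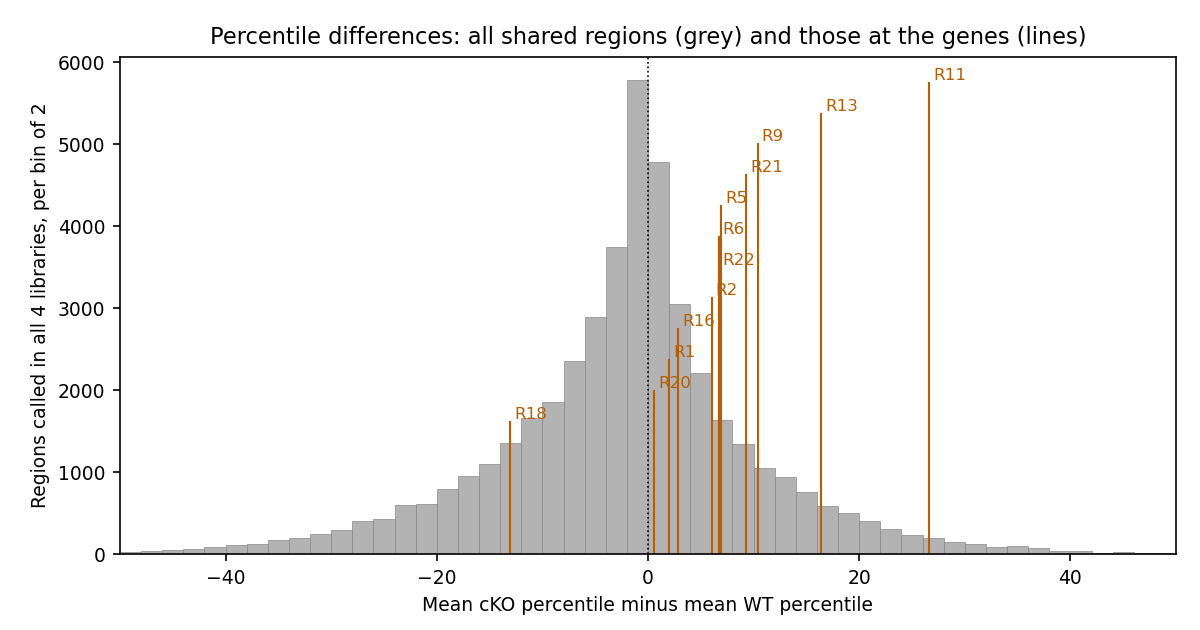
Mean cKO percentile minus mean WT percentile (x axis) for all 44820 regions called in all 4 libraries (grey bars, number per bin of 2 points) and for the 12 at the IRG genes (labelled lines, whose height carries no value). The IRG regions lie to the right of 0, up to 26.6 at R11, except R18 at -13.1, while the grey bars peak just left of 0.

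Rank by area mixes the height of a peak with its width, so start regions were ordered by area per bp. Each value is the highest among the peaks of the region, which need not be the peak over the start. At Irgm1 in WT and in cKO replicate 1, and at Iigp1 in cKO replicate 1, it came from a peak beside the start. The order is therefore one of regions and not of the starts themselves. In WT, Irgm2 stood first, at percentiles 92.1 and 96.0, followed by Ifi47-202, at 70.5 and 77.1, Irgm1, at 72.6 and 61.4, and Igtp, at 62.4 and 58.7. The ranges of Ifi47-202 and Irgm1 overlapped, as did those of Irgm1 and Igtp. In cKO, Irgm2 was again first, at 92.99 and 93.9, Ifi47-202 had 70.1 and 87.4, and Irgm1 had 81.4 and 57.9, so that the latter pair overlapped again. Iigp1-204 (42.8 and 52.7) and Igtp (32.5 and 46.9) came next and overlapped each other, and both overlapped the distal Tgtp1 start (48.6 and 18.99), while Ifi47-204 came last, at 2.48 and 15.1. In WT replicate 2, Iigp1 also had 42.8 by area per bp, whereas by the −log10 p-value at the summit it stood at 27.4 there and at 75.7 and 75.5 in cKO.

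The 4 percentiles of each start region were also set beside those of the start regions of 12007 genes, taking the smallest Euclidean distance. The most alike was Tapbp for Irgm2 (distance 1.30 percentile points), which encodes the tapasin of MHC class I loading, Id1 for Ifi47 (2.22), Syt17 for Igtp (2.98) and Fam117b for Irgm1 (3.73). For Iigp1, with a library without a call set to 0, the nearest was Rdh5, at a distance of 19.8. With that setting Iigp1 had no counterpart as close, whereas Irgm2, Ifi47, Igtp and Irgm1 each had one within 4 points. The values used for Iigp1 are those of the largest peak of R23, which lies beside the start. Tgtp1 and Tgtp2 were not compared.

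Further IRG family genes were read in the same way. The 8 that the annotation names (Irgc1, Irgq, Gm12185, Gm5431, Gm4951, 9930111J21Rik1, 9930111J21Rik2 and F830016B08Rik) had 21 regions, of which 5 were gained and none lost, 1 of the gained being R7, which Gm12185 shares with Tgtp1, beside 3.72% gained and 7.25% lost of all regions. The gained regions lay at 3 of these genes, Irgc1 (2 of 8 regions), Gm12185 (1 of 4) and Gm4951 (2 of 5), and 3 genes had no region. Whether each of these further genes responds to interferon was not tested. Of their 12 shared regions, 8 were higher and 2 lower in cKO, beside 22.2% and 35.1% of all shared regions, with a median difference of 8.12 points.

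The genes of the interferon pathway upstream of the IRGs were read as a list of 18 genes, among them those for interferon receptors, JAK kinases, IRFs and negative regulators. Their 130 regions included 3 gained (2.31%, against 3.72% of all regions) and 14 lost (10.8%, against 7.25%). Of their 76 shared regions, 13 were higher and 37 lower in cKO, beside 22.2% and 35.1% of all shared regions, with a median of -2.01 points against -1.10. At Irf1, 1 of 6 regions was lost and none gained. The 11 guanylate-binding protein genes, another family of interferon-induced GTPases, had 34 regions with 2 gained and 2 lost (5.88% each). Of their 22 shared regions, 2 were higher and 5 lower, with a median of -1.28, which can be read beside the same shares and median of all regions. Whether the IRG genes differ from these lists was not tested.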

How the data were processed

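ATAC-seq libraries were sequenced in pairs, and the authors aligned the reads to mm10 with Bowtie2 2.5.1 and called peaks per library with Genrich at default settings. Read filters, duplicate removal, treatment of repeated sequence and any shift of read ends were not given in the sources used here. The deposited signal was the area under the significance curve of each peak, and the deposited −log10 p-value was that at the summit. Depth is unknown, so no interval for counting error is given.

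Peaks sharing at least 1 bp were merged in Python 3.11.15 (pandas 2.3.3, numpy 2.4.6). Calls were tested on simulated lists. Genes came from GENCODE vM21 (basic set for classes, a promoter being 1000 bp before to 100 bp after a start) and sequence from RefSeq GRCm38.p6. Differences between libraries were tested two-sided by exact permutation of the labels (6 assignments), with the replicate number as a block as an alternative. All regions of the 7 genes were named, and other genes were given by counts or as the nearest in percentiles. The members and lists were chosen with earlier results of these data known. Plots used matplotlib 3.10.9. Coordinates are 1-based. A further marker list and the values of some single genes are not reported here.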

Additional observations from a re-analysis of the deposited data

How the results depend on the processing

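No region was lost at the IRG genes under any of the alternatives run. The gained regions numbered 4 to 8 with windows of 2 or 25 kb, lists of equal length, at least 50% cover and the summit rule, but with only the peaks above the median area of their list they fell from 6 to 1, and none of the 6 was kept. With lists of equal length 5 of the 6 were kept, all but R7. Leaving out each library in turn gave 6 to 9 gained regions, a difference of 5.50 to 10.5 peaks, of 4486 to 6026 bp covered and of 3.93 to 9.62 percentile points for shared regions, the last at its lowest without cKO replicate 2. With the replicate block, within-number differences were 10 and 6 peaks, 4980 and 5532 bp, and 6.71 and 6.85 points (mean differences 8.00, 5256 and 6.78, exact paired p = 0.5, the smallest possible). The labels do not say that a number marks a shared mouse or day, and deviations of equal numbers correlated at 0.295 over shared regions.

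By area per bp, the difference between genotypes turned negative at R1 (-2.32), R6 (-4.64), R20 (-0.58), R21 (-3.59) and R22 (-13.6), with overlapping genotypes at each, and the mean over shared regions was 2.69 points (p = 0.667, exact permutation). R9 and R11 also overlapped by area per bp, while R2, R13 and R18 kept their order under area per bp and −log10 p. R21 overlapped by −log10 p. R23 was gained with lists of equal length and without WT replicate 2.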
